A study of Mus musculus with 4 samples.

Results

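The protein genes of the cytosolic ribosome were followed across 4 thyroid RNA-seq libraries. The members were the deposited gene symbols that begin with Rpl or Rps and go on with a number, with or without a closing a, x or l. Rplp0, Rplp1, Rplp2, Rpsa and Fau were added, and pseudogene symbols ending in -ps and the Rps6k kinases were dropped. This rule gave 80 of the 16218 listed symbols. They comprised 43 large subunit genes, 30 small subunit genes, 3 genes of the P stalk and 4 paralog or retrocopy rows (Rpl3l, Rps27l, Rps4l and Rpl32l). GENCODE annotates 78 of the 80 as protein coding, and Rpl32l and Rps4l as pseudogenes. All 80 passed the filter on low counts, with counts per library from 603 (Rps4l) to 121481 (Rplp0).

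The mice were NOD.H-2h4, a strain prone to autoimmune thyroiditis. They were injected 3 times a week for 2 weeks with an antibody against PD-L1, which binds PD-1, a receptor that restrains T cells, or with an isotype control IgG, and the thyroid was then taken. Each group had 2 libraries, and the titles name a mouse for each. Age and sex were not given in the labels used here. The genotype field repeats the treatment. A batch field holds a different clone string in every library (LTF2 and LTF3 for IgG, 10F.9G2 and 10F.9G3 for anti-PD-L1), so it gives no grouping that could enter a fit. Whether these strings record real batches is not known. RNA was selected by poly(A) and sequenced as paired 150-base reads.

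Cytosolic ribosomes make almost all cell protein. Each contains 1 copy of most ribosomal proteins, so a cell makes these proteins in near-equal amounts from very abundant, short messages. Most of these messages begin with a 5′ terminal oligopyrimidine (TOP) tract, a C at the cap followed by an unbroken run of C and T (U in the RNA). The kinase complex mTORC1 controls the translation of TOP messages through the cap-binding repressor Larp1. That control acts on translation more than on the amount of message, which is what these libraries measure. In the thyroid, follicular cells use ribosomes on the rough endoplasmic reticulum to make large amounts of thyroglobulin.

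The TOP tract was looked for at the annotated start sites because it is the sequence feature that these genes are known to share. RefSeq promoter entries (GRCm38.p6) matched 59 of the 80 members. Of these, 13 (22%) had a C at the annotated start followed by at least 4 further C or T letters. The same letters were found at 2.2% of the start sites of 12338 other listed genes. A run of 8 or more C and T letters lay within 25 bases on either side of the start in 30 members (50.8%) and in 18.8% of the other genes. Only the strand of the gene was searched. The stretches below run from 25 bases before the start to 15 bases from the start onward, with the longest C and T run of the wider window in capitals. The annotated start is the 26th letter; annotated starts can differ by a few bases from the cap used in a tissue. The list gives 8 members with a run over the start and Rpl41, whose longest run is 3 letters.
Rps27 (chr3:90213634-90213673, minus strand): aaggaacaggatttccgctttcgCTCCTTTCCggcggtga
Fau (chr19:6057922-6057961, plus strand): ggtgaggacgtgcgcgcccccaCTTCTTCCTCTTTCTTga
Rps6 (chr4:86857353-86857392, minus strand): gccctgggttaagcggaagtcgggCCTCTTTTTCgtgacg
Rps18 (chr17:33955651-33955690, minus strand): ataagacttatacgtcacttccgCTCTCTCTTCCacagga
Rps10 (chr17:27635230-27635269, minus strand): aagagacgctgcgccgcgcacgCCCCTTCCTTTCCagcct
Rplp2 (chr7:141447626-141447665, plus strand): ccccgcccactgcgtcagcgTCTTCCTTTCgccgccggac
Rpl15 (chr14:18270972-18271011, minus strand): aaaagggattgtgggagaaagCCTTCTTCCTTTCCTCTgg
Rpl27a (chr7:109519170-109519209, plus strand): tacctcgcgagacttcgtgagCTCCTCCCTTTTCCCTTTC
Rpl41 (chr10:128549154-128549193, minus strand): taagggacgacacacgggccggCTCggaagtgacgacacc
In Fau, Rps27, Rps6, Rps18, Rps10, Rplp2, Rpl15 and Rpl27a the run spans the annotated start, over 9 letters in Rps27 and 20 in Rpl27a, where it goes on past the printed stretch. A match describes letters in this window and not a measured cap site.

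Anti-PD-L1 replicate 1 stood apart from the other libraries in its levels of Tg, Xist and Ddx3y. The part of these differences in the values below was not tested. Tg, the thyroglobulin gene, took 4.34% of its counts and 14.6% to 16.9% of the counts of the other libraries. Xist, the RNA of the inactive X chromosome, was at 1.40 CPM there and at 67.7 to 72.7 CPM in the others. Ddx3y, a Y-linked gene, was at 62.6 CPM there and at 0.35 to 0.79 CPM in the others. By Xist and Ddx3y, anti-PD-L1 replicate 1 had a male pattern and the other libraries a female pattern. The anti-PD-L1 pair thus mixed both patterns, and the labels used here give no sex. CPM here means counts scaled to a common library total after TMM scaling, in which libraries are put on a common scale by a trimmed mean of gene ratios. Total counts ranged from 75591923 to 79663374.5. In bulk thyroid, fewer cells of a type and less RNA per cell cannot be told apart.

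No rise or fall of the ribosomal protein genes as a set was detected with the antibody. The 2 anti-PD-L1 libraries lay on opposite sides of the IgG libraries. The members took 3.25% and 2.99% of all counts in IgG replicates 1 and 2, and 3.94% and 2.63% in anti-PD-L1 replicates 1 and 2. With Tg counts left out of the totals, the shares were 3.84%, 3.496%, 4.11% and 3.16% in the same order. The summed CPM of the 80 members was 32429 and 30379 with IgG, and 40487 and 25172.5 in anti-PD-L1 replicates 1 and 2. The highest and the lowest sums were thus both in the treated group. The group means were 31404 ± 1450 for IgG and 32830 ± 10829 for anti-PD-L1 (SD, n = 2 each), a ratio of 1.05. An exact two-sided permutation test gave p = 1, and 2 against 2 libraries cannot go below 0.33. The anti-PD-L1 libraries differed 1.61-fold from each other and the IgG libraries 1.07-fold.

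Gene by gene the order of the libraries was nearly uniform. Anti-PD-L1 replicate 1 was the highest library and anti-PD-L1 replicate 2 the lowest in 78 of the 80 members. Over all 16217 genes tested, 16.8% had that order. The exceptions were Rpl3, whose level in IgG replicate 1 was the highest, and Rps4l. As deviations of log2 CPM from each gene's mean over the 4 libraries, the members' medians were 0.02 and −0.07 with IgG, and 0.41 and −0.36 in anti-PD-L1 replicates 1 and 2. IgG replicate 1 was above IgG replicate 2 in 71 members, by a much smaller amount, with a median ratio of 1.065 (the median ratio of the anti-PD-L1 libraries was 1.68).

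**Figure D1:**
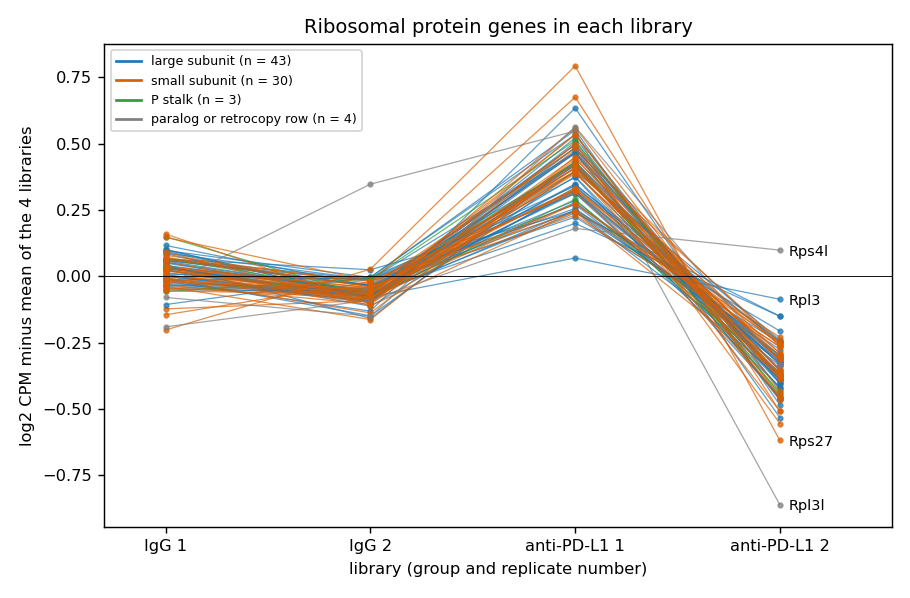
Each line is one of the 80 ribosomal protein genes. The y axis is log2 CPM relative to that gene's own 4-library mean, and the x axis gives the libraries. Apart from Rpl3l (0.35 in IgG replicate 2), the lines are narrow over both IgG libraries. They peak in anti-PD-L1 replicate 1 (median 0.41) and end lowest in anti-PD-L1 replicate 2 (median −0.36), except for Rps4l and Rpl3.

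Accordingly no member passed the test between the groups. With edgeR's quasi-likelihood test and Benjamini-Hochberg adjustment over all genes, 0 of 80 members had an adjusted p under 0.05, as did 0% of all genes. At an unadjusted p under 0.05 the count was 0 of 80 members, against 6.06% of all genes. DESeq2 called 0 of 80 members and 3.26% of all genes, and limma voom called 0 of 80 and 0% of all genes. The smallest unadjusted edgeR p of a member was 0.192, for Rps4l, whose adjusted p was 1.00. Both anti-PD-L1 libraries were above both IgG libraries in 1 of 80 members (Rps4l), against 16.5% of all genes. Both were below in 0 of 80, against 13.1%. A p that misses the threshold does not show equal levels. The standard errors of the members' log2 fold changes ran from 0.18 to 0.52, with a median of 0.34. On data simulated with the spread of these libraries, edgeR recovered 1 of 100 genes changed 2-fold and 64 of 100 changed 4-fold.

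The log2 fold changes, anti-PD-L1 minus IgG, were small beside those errors. They ranged from −0.16 (Rpl3l) to 0.34 (Rps27), with a median of 0.10 over the members and of 0.00 over all genes. The estimate was above 0 in 64 members and below 0 in 16, and above 0 in 50.03% of all genes. The median members' biological coefficient of variation, the spread between libraries of a group beyond counting noise, was 29.5%, against 24.4% over all genes.

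**Figure D2:**
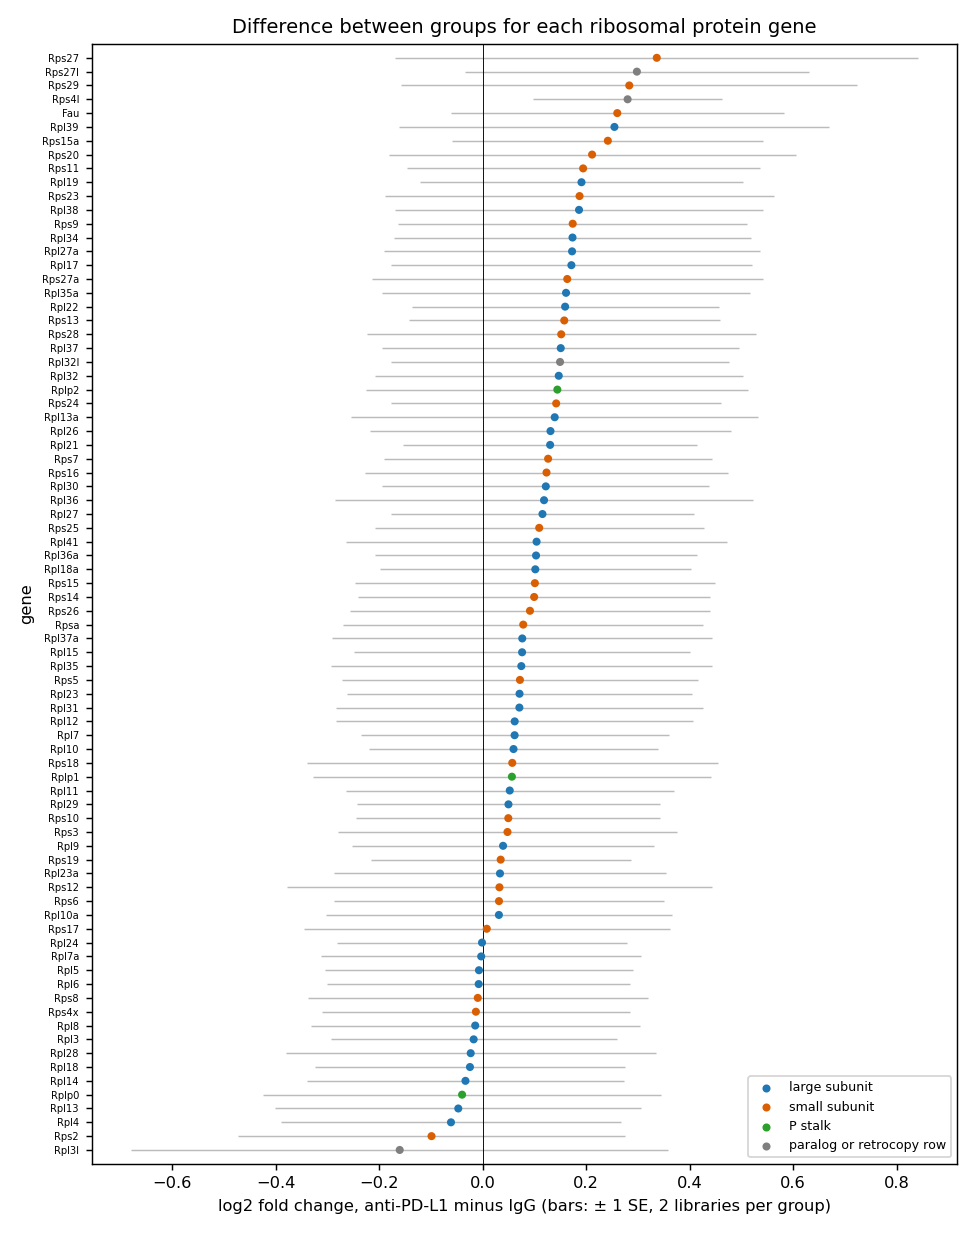
Log2 fold change of each member, anti-PD-L1 minus IgG, on the x axis with a bar of 1 SE on each side (2 libraries per group), ordered by size along the y axis. The points run from −0.16 to 0.34, and every bar except that of Rps4l (0.28 ± 0.18) reaches 0.

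Those signs rested on 1 library. Without anti-PD-L1 replicate 1, 1 of 80 members (Rps4l) had an estimate above 0, and the median log2 fold change was −0.33. Without anti-PD-L1 replicate 2, 80 of 80 were above 0 and the median was 0.42. edgeR called 0 members and 0% of all genes in either case. At an unadjusted p under 0.05, 17 of 80 members were lower without anti-PD-L1 replicate 1, against 6.73% of all genes. Without anti-PD-L1 replicate 2, 37 of 80 were higher, against 6.48%. DESeq2 called 5 of 80 members (6.25%) as lower without anti-PD-L1 replicate 1, near the 4.04% of all genes called lower. It called 19 of 80 (23.8%) as higher without anti-PD-L1 replicate 2, against 2.65% of all genes. On the data simulated with 2 libraries per group, DESeq2 made 88 false calls and edgeR 14. The 5, named after their values were seen, were Rpl13, Rpl36, Rpl37a, Rpl3l and Rps18. Rpl36 was called in both directions, at log2 fold changes of −0.52 and 0.55. With a library left out, the remaining anti-PD-L1 library has no replicate and is assumed to vary like the IgG pair. In 78 of 80 members anti-PD-L1 replicate 1 was highest and replicate 2 lowest, so leaving either out sets the direction beforehand. The members also move together, so the members counted in these fits are not independent hits. Even beside the shares of all genes, these counts restate that order and do not test the antibody.

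Among the 43 large subunit genes the log2 fold changes ran from −0.06 (Rpl4) to 0.25 (Rpl39), and 32 were above 0. Rpl39, a very short protein of the wall of the exit tunnel, was at 159 and 148 CPM with IgG and at 251 and 115 CPM with anti-PD-L1 (log2 fold change 0.25 ± 0.42, SE). Its IgG values lay between the anti-PD-L1 values. Rpl4, a long protein that also lines the tunnel, was at 789 and 767 CPM with IgG and at 894 and 597 CPM with anti-PD-L1 (−0.06 ± 0.33). Here too the treated libraries lay on both sides.

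Rpl5 and Rpl11 bind the 5S ribosomal RNA and, outside the ribosome, the p53 regulator Mdm2. Rpl5 was at 540 and 503 CPM with IgG and at 611 and 426 CPM with anti-PD-L1 (−0.01 ± 0.30). Rpl11 was at 513 and 472 CPM with IgG and at 618 and 403 CPM with anti-PD-L1 (0.05 ± 0.32). Both therefore followed the general order, with groups that overlapped. Rpl23, another protein reported to bind Mdm2, was at 342 and 324 CPM with IgG and at 440 and 259 CPM with anti-PD-L1.

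Rpl13a is known for its release from the ribosome in interferon gamma-treated myeloid cells, where it silences selected messages. It was at 337 and 309 CPM with IgG and at 472 and 239 CPM with anti-PD-L1 (0.14 ± 0.39). Rpl10, which joins the large subunit late and helps to form its catalytic centre, varied less, at 645 and 611 CPM with IgG and at 733 and 575 CPM with anti-PD-L1. Rpl38, known for its part in the translation of Hox messages, was at 75.6 and 81.3 CPM with IgG and at 118 and 60.6 CPM with anti-PD-L1. For Rpl38 the IgG libraries were in the reverse of their usual order. Rpl22, a nonessential large subunit protein needed for alpha-beta T cell development, was the lowest large subunit gene outside the paralogs, at 72.1 and 62.7 CPM with IgG and at 94.4 and 56.1 CPM with anti-PD-L1. Rpl13 (−0.05 ± 0.35) and Rpl14 (−0.03 ± 0.31), structural proteins of the large subunit, were among the 6 lowest estimates.

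The P stalk of the large subunit recruits the translation factors that hydrolyse GTP. Rplp0, its anchor, had the highest mean level of all members on the CPM scale, at 1499.8 and 1281 CPM with IgG and at 1653 and 1052 CPM with anti-PD-L1 (−0.04 ± 0.38). Rplp1 was at 619 and 568 CPM with IgG and at 797 and 437 CPM with anti-PD-L1 (0.06 ± 0.38). Rplp2, which pairs with Rplp1 on that anchor, was at 185 and 191 CPM with IgG and at 274 and 141 CPM with anti-PD-L1 (0.14 ± 0.37). All 3 stalk genes had the common order.

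Among the 30 small subunit genes the log2 fold changes ran from −0.10 (Rps2) to 0.34 (Rps27), and 27 were above 0. Rps27, a zinc-finger protein of the small subunit, was at 118 and 139 CPM with IgG and at 236 and 88.8 CPM with anti-PD-L1 (0.34 ± 0.50). Its treated libraries differed 2.66-fold, the largest such ratio of any member. Rps29, another short zinc-finger protein of the small subunit, was at 196 and 213 CPM with IgG and at 346 and 152 CPM with anti-PD-L1 (0.28 ± 0.44). Rps2, at the messenger entry site, was at 1484 and 1325 CPM with IgG and at 1587 and 1036 CPM with anti-PD-L1 (−0.10 ± 0.37). The IgG values of these 3 genes all lay between their anti-PD-L1 values.

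Rps6, the protein that S6 kinase phosphorylates downstream of mTORC1, was at 748 and 709 CPM with IgG and at 883 and 606 CPM with anti-PD-L1 (0.03 ± 0.32). Rps3, which also acts in DNA repair and with NF-kappaB, was at 892 and 813 CPM with IgG and at 1039 and 723 CPM with anti-PD-L1 (0.05 ± 0.33). Rps19, the gene most often mutated in Diamond-Blackfan anaemia, was at 198 and 172 CPM with IgG and at 220 and 158 CPM with anti-PD-L1 (0.03 ± 0.25). Its spread was the narrowest of these 3. Rps14, whose loss underlies the anaemia of the human 5q- syndrome, was at 901 and 885 CPM with IgG and at 1147 and 765 CPM with anti-PD-L1. Rpsa, also known as the laminin receptor, was at 920 and 866 CPM with IgG and at 1142 and 743 CPM with anti-PD-L1. Both had the common order.

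A few ribosomal proteins are made fused to ubiquitin or a ubiquitin-like protein. Fau, the source of the small subunit protein eS30, was at 279 and 286 CPM with IgG and at 423 and 254 CPM with anti-PD-L1 (0.26 ± 0.32). Rps27a, a ubiquitin fusion, was at 179 and 168 CPM with IgG and at 258 and 130 CPM with anti-PD-L1 (0.16 ± 0.38). Rps3a1, a small subunit protein, and Rack1, a signalling scaffold on the small subunit, fall outside the symbol rule and had log2 fold changes of −0.02 ± 0.30 and 0.02 ± 0.32. Both had the common order of libraries.

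Several ribosomal proteins have a paralog that replaces them in particular tissues or states. Rpl3l replaces Rpl3 in striated muscle. Its count was 23.0% and 33.8% of that of Rpl3 with IgG, and 35.0% and 14.7% of it in anti-PD-L1 replicates 1 and 2. In CPM, Rpl3l was at 189 and 246 with IgG and at 283 and 107 with anti-PD-L1 (−0.16 ± 0.52). Rpl3 itself was at 822 and 729 CPM with IgG and at 807 and 725 CPM with anti-PD-L1, with the smallest ratio between the anti-PD-L1 libraries of any member but Rps4l. The summed CPM of 10 skeletal muscle markers had the same order as Rpl3l, at 36721, 47926, 57993 and 22379, and 6 of the 10 had anti-PD-L1 replicate 1 highest and replicate 2 lowest. Their part in the Rpl3l values was not tested.

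Rps27l, a p53-inducible relative of Rps27, was at 55.4 and 52.8 CPM with IgG and at 86.5 and 46.4 CPM with anti-PD-L1 (0.30 ± 0.33). Its count was 46.8%, 38.0%, 36.6% and 52.3% of that of Rps27 in IgG 1, IgG 2, anti-PD-L1 1 and anti-PD-L1 2. The treated libraries thus held both the lowest and the highest ratio. Rps4l, an intronless relative of Rps4x, was at 7.54 and 8.09 CPM with IgG and at 9.76 and 9.22 CPM with anti-PD-L1 (0.28 ± 0.18). It was the lowest member, at 1.29% to 1.99% of the Rps4x count.

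Of the paralogs whose symbols fall outside the rule, Rpl22l1 had 46.6%, 52.95%, 47.9% and 47.4% of the count of Rpl22 in the same order of libraries. Rpl36al, an expressed copy of Rpl36a, had 203%, 192%, 178% and 226% of the count of Rpl36a. Rpl7l1, a paralog of Rpl7 that acts in ribosome assembly, had 11.98%, 12.4%, 10.5% and 14.4% of the count of Rpl7. Rpl7l1 itself was at 77.5 and 74.0 CPM with IgG and at 78.8 and 78.9 CPM with anti-PD-L1, so it did not share the members' order. Rpl39l and Rpl10l, whose symbols fit the rule, were not among the listed symbols.

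The members did not all differ to the same degree between the anti-PD-L1 libraries. The ratio of replicate 1 to replicate 2 ran from 1.06 in Rps4l and 1.11 in Rpl3 to 2.65 in Rpl3l and 2.66 in Rps27. Next after these came Rps29 (2.27), Rpl39 (2.17), Rpl36 (2.12), Rps12 (2.08) and Rps28 (2.00), which encode short proteins. Coding length and this log2 difference had a Spearman correlation of −0.74 across the 76 members other than the 4 paralog or retrocopy rows, and of −0.68 over the 78 members with an annotated coding sequence. For the length of the annotated transcript it was weaker, −0.47 over the 76 and −0.43 over all 80. That length depends on the transcript chosen, which for Rps15a and Rps20 had 5130 and 3706 bases for coding sequences of 390 and 357. The genes share their libraries and are not independent, so this is a description. Base composition showed little relation to it (Spearman −0.08 for GC content).

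Genes outside the ribosome showed the same gradient at a lower level. The 9 members with under 300 coding bases had a median log2 difference between the anti-PD-L1 libraries of 0.96, and 310 other protein-coding genes of that length had 0.51. From 300 to under 500 bases the medians were 0.79 for 39 members and 0.31 for 929 other genes. From 500 to under 900 bases they were 0.62 for 26 members and 0.16 for 2729 other genes. From 900 to under 1500 bases the median of the 4 members (Rpl3, Rpl3l, Rpl4 and Rplp0) did not go lower, at 0.62, and other genes had 0.04. Those 4 members ranged widely, from 0.16 in Rpl3 to 1.41 in Rpl3l. The other genes went on to −0.08 from 1500 to under 3000 bases and −0.24 from 3000 bases. Between the IgG libraries the medians of the other genes stayed between −0.02 and 0.02 in every class. Without mitochondrial ribosomal and respiratory chain genes, the shortest class of other genes had 0.46. By these medians the members lay above other genes of like length, though the classes were not matched for level of expression. The 79 subunits of oxidative phosphorylation had a median difference of 0.79, against 0.75 for all 80 members. The part of gene length, of RNA quality and of tissue makeup in the order of the libraries was not tested.

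**Figure D3:**
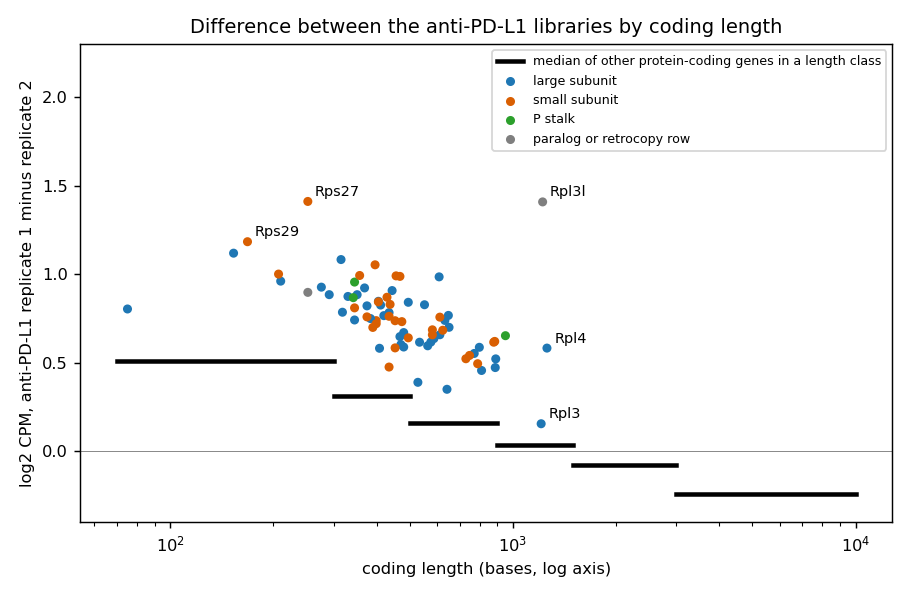
Log2 CPM of anti-PD-L1 replicate 1 minus replicate 2 (y axis) against coding length in bases (log x axis). Each point is a member with an annotated coding sequence (78 genes), and black lines are medians of other protein-coding genes by length class. The lines fall with length, from 0.51 to −0.24, the members' medians fall from 0.96 to 0.62 over their first 3 classes, and each plotted member lies above the line of its class.

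The members' median log2 fold change between groups was also higher for shorter coding sequences, by less than their median standard error of 0.34. The 39 members with coding sequences shorter than the members' median had a median log2 fold change of 0.13, with 38 above 0. The 39 longer ones had 0.05, with 24 above 0. Over all genes, 50.03% were above 0. The medians of other protein-coding genes fell with length too, from 0.09 under 300 coding bases to −0.07 from 3000 bases. None of either set passed the test. On the scale of CPM per kilobase of annotated transcript, the levels ran from 11.0 in Rps4l to 1549 in Rps14, with a median of 460. Rps2 (1361) and Rplp1 (1213) were next to Rps14. Rps15a (38.3) and Rps20 (90.6) were scaled by long annotated transcripts, of 5130 and 3706 bases, so their low values depend on that choice.

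Ribosomal protein genes have many near-identical retrocopies, and the count of a member can depend on how reads that match both were assigned. The search covered 382 listed rows, chosen by a pseudogene annotation or a symbol typical of pseudogenes, retrocopies or predicted genes. Other paralogs, such as Rpl36al, were not compared. Among the rows searched, 14 members had 15 copies with at least 85% identity over the member's coding sequence. The 8 copies with at least 98% identity had counts of 93.8% to 137% of their member. The 7 less alike had 1.21% to 40.2%. In 4 pairs (Rps27 with Rps27rt, Rpl26 with Gm15772, Rpl34 with Rpl34-ps1 and Rpl30 with Gm12191) the counts were within 1% of each other in every library. For Rpl26 and Gm15772 they were 34708 and 34707 in IgG replicate 1, 31310 and 31310 in IgG replicate 2, then 43007 and 43007, and 27560 and 27557, in the anti-PD-L1 replicates. Reads from the 2 loci therefore cannot be told apart in these values, and the levels of such members are uncertain.

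The sequences below show 3 of these pairs, 120 coding bases of the member and the aligned stretch of the copy, with differing bases in capitals (GENCODE on GRCm38). Rps27 (chr3:90212522-90213651, minus strand) and Rps27rt (chr9:114982366-114982739, minus strand) have no difference over the 252 coding bases compared, and coding bases 1 to 120 are printed.
Rps27: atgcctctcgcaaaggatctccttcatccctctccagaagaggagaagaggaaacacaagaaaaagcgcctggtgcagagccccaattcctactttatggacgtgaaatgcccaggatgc
Rps27rt: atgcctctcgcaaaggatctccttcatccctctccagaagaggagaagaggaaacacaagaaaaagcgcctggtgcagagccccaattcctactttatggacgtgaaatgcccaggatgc
Rpl26 (chr11:68901583-68906989, plus strand) and the processed pseudogene Gm15772 (chr5:3236431-3236868, plus strand) differ at 2 of 435 bases. Both differences lie in coding bases 169 to 288.
Rpl26: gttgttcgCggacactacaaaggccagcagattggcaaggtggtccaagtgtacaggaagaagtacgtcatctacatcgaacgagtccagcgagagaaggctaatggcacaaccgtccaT
Gm15772: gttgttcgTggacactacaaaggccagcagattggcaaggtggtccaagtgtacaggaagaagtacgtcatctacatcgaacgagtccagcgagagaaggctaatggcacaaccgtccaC
Rps26 (chr10:128624534-128626747, minus strand) and the processed pseudogene Gm6654 (chr6:146647241-146647588, minus strand) differ at 9 of 345 bases. Coding bases 166 to 285 hold 5 of the 9.
Rps26: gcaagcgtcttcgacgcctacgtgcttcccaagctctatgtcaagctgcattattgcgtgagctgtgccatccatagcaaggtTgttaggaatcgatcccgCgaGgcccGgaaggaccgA
Gm6654: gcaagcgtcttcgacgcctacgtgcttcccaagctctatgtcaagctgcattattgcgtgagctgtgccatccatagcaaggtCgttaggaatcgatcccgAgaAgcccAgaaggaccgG
With 97.4% identity, the Gm6654 count was 35.8% to 40.2% of that of Rps26. Rps27rt, with no difference, had 100.1% to 100.4% of that of Rps27. Rps27rt had a 2.66-fold difference between the anti-PD-L1 libraries, as Rps27 did. Without the 14 members for which such a copy was found, the median log2 fold change was 0.09, with 53 of 66 above 0. The 66 still include Rpl32l, itself a copy of Rpl32, and may have copies outside the rows searched.

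**Figure D4:**
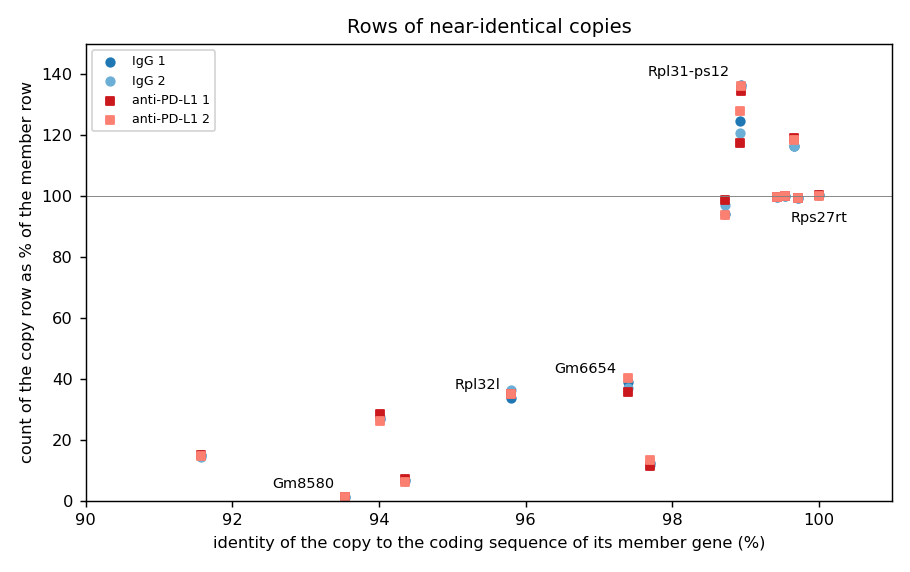
Count of each of 15 copies as a percent of its member's count (y axis, 1 point per library) against identity to the member's coding sequence (x axis, from 90%). Copies at 98% identity or more lie between 93.8% and 137%, and the others between 1.21% and 40.2%.

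Other genes of translation were read from lists drawn up with earlier results of these data known. The 78 mitochondrial ribosomal proteins, which serve the separate ribosome of mitochondria, had a median log2 fold change of 0.07, and 56 of 78 had the members' order of libraries. Mrps6 (0.33 ± 0.19), Mrps22 (0.30 ± 0.19) and Mrps30 (−0.19 ± 0.14) had the smallest p-values of that list. The 79 subunits of oxidative phosphorylation, a list added after the data were seen, had a median of 0.02, and 69 of 79 had that order. Their median difference between the anti-PD-L1 libraries was 0.79 on the log2 scale, against 0.75 for the members. Over all genes 16.8% had that order.

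Of 19 translation factors whose messages also carry TOP tracts, 12 had the order, with a median log2 fold change of 0.05. Eif3f, a subunit of initiation factor eIF3, was at 160 and 162 CPM with IgG and at 203 and 152 CPM with anti-PD-L1. Among 36 other initiation and elongation factors 14 had the order (median −0.02). Among 67 ribosome assembly genes it was 16, among 16 genes of RNA polymerase I, which transcribes ribosomal RNA, it was 4, and among 15 listed snoRNA host genes it was 7. The share over all genes was 16.8%. Gas5, a snoRNA host whose noncoding message has a TOP tract, was at 4.29 and 4.07 CPM with IgG and at 2.84 and 3.60 CPM with anti-PD-L1 (−0.37 ± 0.24). The assembly genes moved little between the anti-PD-L1 libraries (median 0.09 on the log2 scale).

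Of 13 genes listed under mTORC1 signalling to TOP messages, not all of them specific to that pathway, 2 had the order. Among them Rps6ka1, the kinase RSK1, which also phosphorylates Rps6, was at 28.6 and 30.6 CPM with IgG and at 38.6 and 40.2 CPM with anti-PD-L1 (0.41 ± 0.14, adjusted p = 0.694 with edgeR). Its groups did not overlap, and both anti-PD-L1 libraries were above both IgG libraries in 16.5% of all genes. Rps6ka1 did not pass the test. Of 20 p53 targets, 7 had the order. For this list and the mTORC1 list, the share to set beside the count is 16.8% of all genes. Trp53inp1, a p53-induced regulator of autophagy and cell death, was at 26.2 and 27.0 CPM with IgG and at 52.1 and 51.8 CPM with anti-PD-L1 (0.97 ± 0.13, adjusted p = 0.200 with edgeR). With edgeR, which called 0% of all genes, no gene of these lists passed the adjusted threshold. DESeq2, which called 3.26% of all genes, called Trp53inp1 (adjusted p = 3.4e-05) and no other gene of them.

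**Figure D5:**
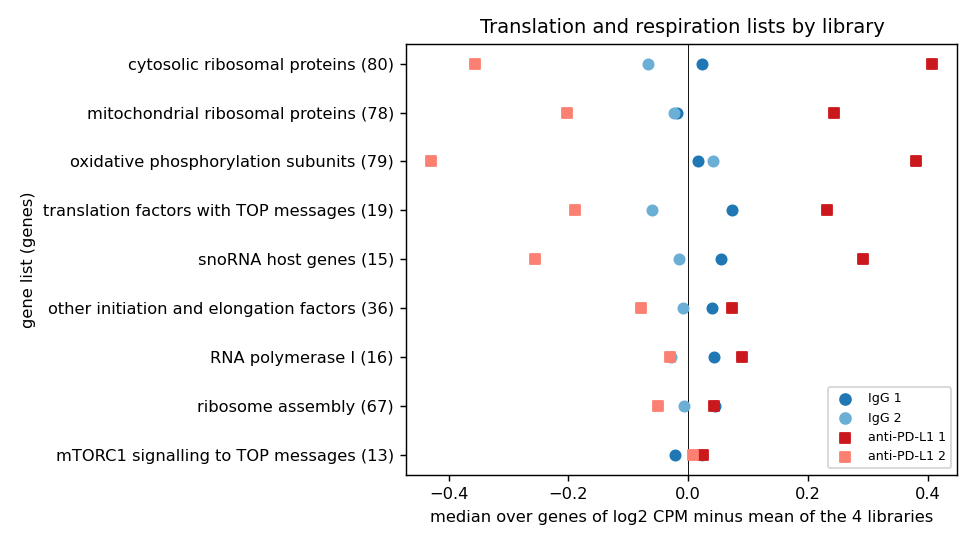
Median over the genes of each list (y axis, number of genes in brackets) of log2 CPM relative to that gene's own 4-library mean (x axis), 1 symbol per library. The anti-PD-L1 libraries lie far apart for cytosolic ribosomal proteins (0.41 and −0.36) and oxidative phosphorylation (0.38 and −0.43), and close together for ribosome assembly (0.04 and −0.05).

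Markers of the cell types in or near the dissected thyroid also differed between libraries, and no marker was at 0 in any of them. The summed CPM of 12 thyrocyte markers was 155800 and 150350 with IgG and 46138 and 167242 with anti-PD-L1, the reverse of the members' order within the treated group. Most of each sum was Tg, at 152770, 148532, 44666.5 and 162488 CPM in the same order. As log2 CPM relative to each gene's mean, the median over the 12 was 0.28 and −0.25 with IgG. With anti-PD-L1 it was −0.58 and 0.53. The 10 mucosal gland markers summed to 5571, 28065, 48998 and 13633 CPM and the 9 squamous epithelium markers to 11496, 3088, 4646 and 68.3 CPM, in the order IgG 1, IgG 2, anti-PD-L1 1, anti-PD-L1 2. The 13 T cell markers summed to 34.5 and 64.6 CPM with IgG and to 181 and 185 CPM with anti-PD-L1, and the 10 macrophage markers to 286, 296, 962 and 885 CPM. The T cell and macrophage sums were alike in both anti-PD-L1 libraries, while the plasma cell and B cell sums were higher in replicate 1. The 5 listed plasma cell markers summed to 446, 542, 1633 and 817 CPM. The 9 B cell markers summed to 44.7, 130, 151 and 77.3 CPM. The part of these cell types in the members' values was not tested.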

How the data were processed

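The deposited table holds expected counts per gene symbol, not normalized by the authors, in 1 value column per library. BWA and the mm10 build are named, per the submitters' processing notes. The counting program was not given in the sources used here, nor were the annotation, the strand setting and the treatment of reads with several matches. Each library was prepared by poly(A) selection and random priming, per the labels' protocols. The members and gene lists were chosen with earlier results of these data known.

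Expected counts were rounded to whole numbers (3328 genes, 7 of them members, had a count ending in a fraction). The 13 blank cells were read as 0. edgeR 4.0.16 in R 4.3.3 was run on all genes (filterByExpr, 16217 of 16218 kept; TMM; robust quasi-likelihood F test, two-sided) with Benjamini-Hochberg adjustment and a threshold of 0.05. Standard errors are the absolute log2 fold change over the square root of F. Log2 CPM used a prior count of 2. With totals of 75591923 to 79663374.5, counting error is small for the members, and the 2 libraries per group limit the precision. The titles name a mouse for each library without an animal identifier, so p-values measure only the spread between these samples. The libraries of a group differed beyond sampling noise (chi-square divided by its degrees of freedom, 321 and 1056).

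Named genes were the 6 highest and 6 lowest fold changes, the 3 smallest p-values, the 3 highest and 3 lowest levels, the 3 largest differences within a group, the paralogs, genes outside the pattern, members with known roles and up to 3 genes of smallest p per related list; the text describes those the results turn on, and other names were added after values were seen. Copies were aligned to GENCODE coding sequences with edlib, and promoters came from RefSeq. Alternatives tried were scaling by RLE, by the upper quartile and by library size alone, TMM without the members, the table without Tg, 2 other filters, DESeq2 1.42.0, limma voom 3.58.1, a replicate block, each library left out and other member sets. DESeq2 with libraries left out and splits by copy and length were chosen after seeing the data. The edgeR and DESeq2 fits of all 4 libraries were tested on simulated data, and the other fits were not.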

Additional observations from a re-analysis of the deposited data

How the results depend on the processing

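Under every scaling, filter, tool and member set tried on all 4 libraries, and at an adjusted p under 0.10, the count of members past the threshold stayed at 0, and the median log2 fold change stayed between 0.05 and 0.13. Leaving out a library gave medians from −0.33 (without anti-PD-L1 replicate 1) to 0.42 (without anti-PD-L1 replicate 2), and ratios of summed levels from 0.80 to 1.28. DESeq2 with a library left out, added after seeing the data, called 5 members (and 1139 of 16218 genes in all) without anti-PD-L1 replicate 1, 19 (785 in all) without anti-PD-L1 replicate 2, and 0 without IgG replicate 1 or 2 (227 and 515 in all). By construction, the lone anti-PD-L1 library then has no replicate, and the 5 and 19 calls restate the order of the libraries. The sign of single members changed in 0 to 4 of 80 under the other scalings and filters, in 10 and 11 without an IgG library, and in 63 and 16 without anti-PD-L1 replicates 1 and 2. With the replicate block the median was 0.05, 58 members were above 0 and 0 were called. The differences of replicate 1 minus replicate 2 in the IgG and anti-PD-L1 groups had r = 0.10 across all genes. Across the 80 members r was −0.42. The labels used here give no link between same-numbered libraries beyond the number. With 2 libraries per group, 2-fold changes were rarely recovered on simulated data (1 of 100 with edgeR, 24 of 100 with DESeq2, beside 14 and 88 false calls).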
